A study of Mus musculus with 9 samples.

Results

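The clustered protocadherins are the protein-coding genes of the alpha, beta and gamma protocadherin clusters, chosen by the prefixes Pcdha, Pcdhb and Pcdhg of their symbols. They number 58 of the 56748 genes in the table: 14 alpha genes, 22 beta genes and 22 gamma genes. Their transcripts were measured by bulk RNA sequencing of the brain, with the cerebellum removed, of mice aged 7 months, in 3 genotypes with 3 libraries each and 1 mouse per library. Wild-type mice carried no transgene that the labels name. 5xFAD mice carry mutant human APP among their transgenes, expressed in neurons from the Thy1 promoter, and form amyloid plaques. The 5xFAD/Cd5l tg/wt mice carry the 5xFAD transgenes and, in the state written tg/wt, also express mouse CD5L from a transgene that the human PDGF-B promoter drives. CD5L, made by macrophages, is secreted and has scavenger-receptor domains. The question addressed here is how the levels of these genes differed among the 3 genotypes.

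Clustered protocadherins are cadherin-like adhesion proteins of the neuronal surface. Each neuron switches on its own small set of isoforms, chosen by promoter activity, CTCF and cohesin binding and DNA methylation, and the proteins bind only matching isoforms on another membrane, which lets a neuron tell its own branches from those of others. In the alpha and gamma clusters, each gene model is 1 variable exon spliced to constant exons that all isoforms of the cluster share, whereas beta genes consist of a single exon without a constant part. The alternate isoforms are chosen variably between neurons, and the C-type isoforms (Pcdhac1, Pcdhac2, Pcdhgc3, Pcdhgc4 and Pcdhgc5) are more broadly used.

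All 58 genes lie on the plus strand of chromosome 18 in GRCm39, the build that the submitters' processing notes name. The alpha models run from 37063237 to 37320714, the beta models from 37397991 to 37657532 and the gamma models from 37794846 to 37974926. The shared exons affect what a count per gene means. In the GENCODE M21 gene models, whose exon lengths equal the deposited lengths for 58 of 58 genes, 90.3% to 100% of the exon bases of a beta gene were covered by no other model on that strand. For alpha genes the unshared part was 8.56% to 61.1% (median 46.4%) and for gamma genes 33.2% to 68.5% (median 55.3%). Whether reads in the shared exons were dropped, split or counted more than once is not given in the sources used here, so levels of alpha and gamma isoforms are uncertain in a way that those of beta genes are not. Strand use in counting is not given either, and 12 of the tested genes overlap an exon of a gene on the opposite strand. For Pcdhga10 that overlap, with Gm26672, and the shared constant exons together left 0% of the exon bases unshared on either strand.

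**Figure D1:**
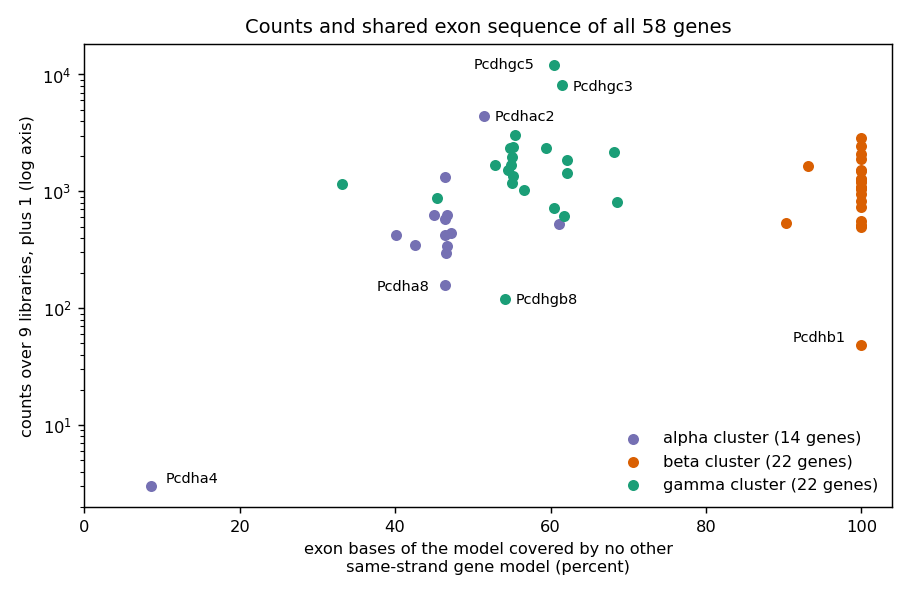
Counts of each of the 58 genes summed over 9 libraries, plus 1 (y axis, log scale), against the percent of its exon bases that no other gene model on the same strand covers (x axis). Beta genes sit at 90.3% or more, the alpha and gamma genes at 68.5% or less, and Pcdha4 stands alone at the lower left with 8.56% and 2 counts.

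The libraries held 14575416 to 17865150 counts. Of the 58 genes, 56 passed the filter on low counts and were tested among 17575 genes. The other two were Pcdhb1, with 14 counts over the wild-type, 19 over the 5xFAD and 14 over the 5xFAD/Cd5l tg/wt libraries, and Pcdha4, with 2 counts, both in 5xFAD libraries. Cd5l itself had 0 counts in the 5xFAD libraries, 1 in the wild-type libraries and 2553 to 3551 in the 5xFAD/Cd5l tg/wt libraries, as the labels state. Summed markers of neurons lay between 7921 and 8722 CPM (counts of a gene relative to the scaled total of its library) in every library. This sum does not show that each marker was stable. Log2 fold changes of the 10 neuron markers ran from -0.49 to 0.21 in 5xFAD/Cd5l tg/wt against 5xFAD, 5 positive and 5 negative. Summed markers of oligodendrocytes ran from 4844 CPM in 5xFAD/Cd5l tg/wt library 2 to 8486 CPM in wild-type library 1. Although the tissue was labelled as free of cerebellum, the summed level of 9 markers of cerebellar granule and Purkinje cells was 1169 CPM in wild-type library 3 and 187 to 263 CPM in the other libraries. The summed level of 6 serotonergic markers was 58.4 and 60.5 CPM in libraries 2 and 3 of 5xFAD/Cd5l tg/wt and 67.1 to 109 CPM in the others, with the highest values in 5xFAD library 3 (109 CPM) and 5xFAD/Cd5l tg/wt library 1 (105 CPM). Choroid plexus markers ran from 350 CPM in 5xFAD/Cd5l tg/wt library 1 to 851 CPM in its library 3. Wild-type library 3, by its cerebellar markers, and 5xFAD/Cd5l tg/wt libraries 2 and 3, by their low serotonergic markers, are called the 3 libraries that stood apart, and main results are given with and without them. This choice was taken from an earlier analysis of these data, and the libraries with the highest serotonergic markers were kept. Without the 3 libraries that stood apart, only library 1 of 5xFAD/Cd5l tg/wt remains, so comparisons of that genotype then rest on a single mouse. As background to the comparisons, summed microglial markers were 335 to 371 CPM in wild-type, 655 to 861 in 5xFAD and 786 to 905 in 5xFAD/Cd5l tg/wt libraries.

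The clusters were broadly detected in all genotypes, and their levels kept nearly the same order across genotypes. Of the 58 genes, 54 reached at least 1 CPM in every library and 13 reached at least 10 CPM. Divided by the length of the gene model, the highest mean over the 9 libraries was 11.0 CPM per kb for Pcdhgc5, followed by Pcdhgc3 with 10.3, Pcdhb9 with 6.55, Pcdhac2 with 5.26 and Pcdhga11 with 4.47 CPM per kb. Per kb of exon not shared with another model on the strand, Pcdhgc5 (18.2) and Pcdhgc3 (16.8) again came first, and Pcdhac2 (10.2) and Pcdhga11 (8.07) moved ahead of Pcdhb9 (6.55). The lowest of the tested genes per kb of the whole model was Pcdhgb8 with 0.179 CPM per kb. Ranges over the libraries of Pcdhgc5 (8.10 to 14.9 CPM per kb) and Pcdhgc3 (8.08 to 12.1) overlapped, so that these neighbours in the order do not differ beyond their spread. Across the 56 tested genes, mean levels of any pair of genotypes had a Spearman rho of 0.983 to 0.984 and a Pearson r of 0.974 to 0.987. These correlations are across genes of the same libraries, which are not independent replicates.

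**Figure D2:**
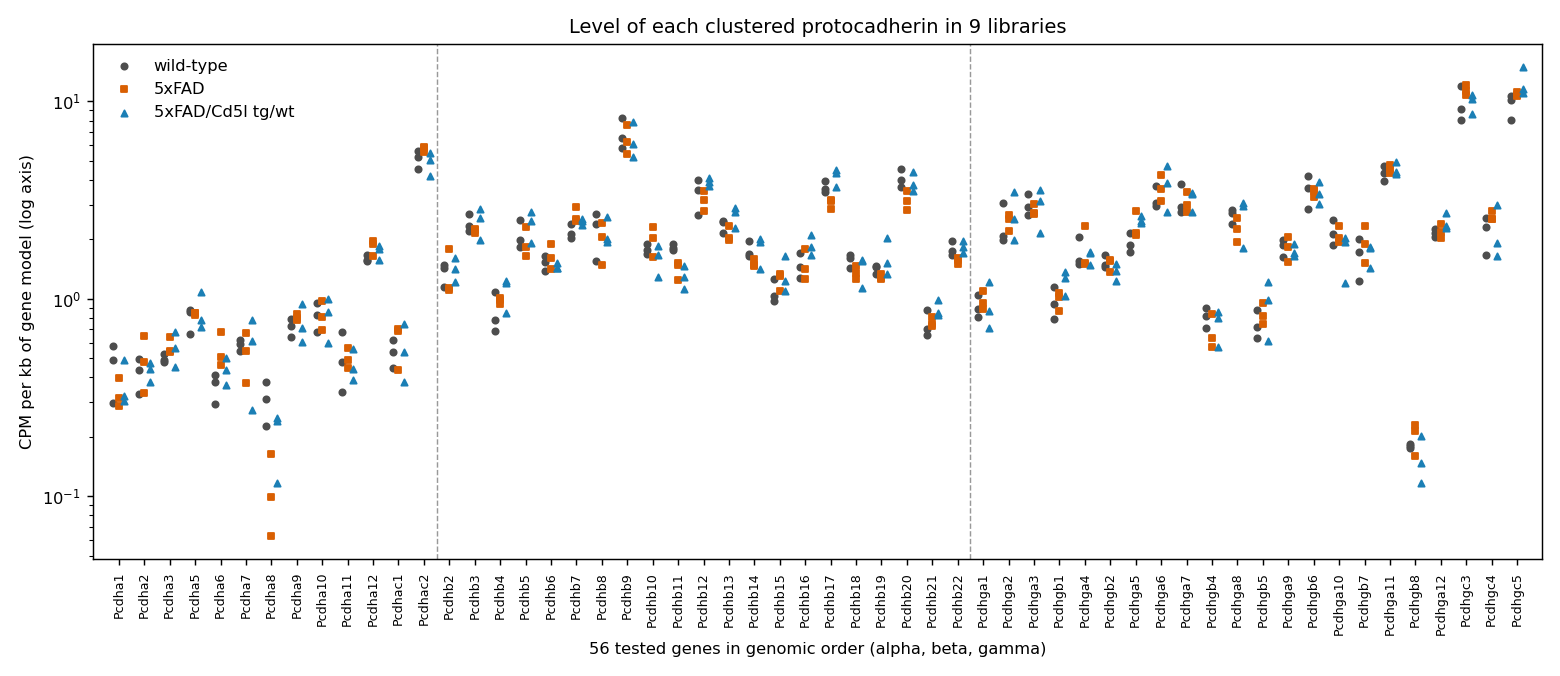
Level of the 56 tested genes in each of the 9 libraries (y axis, CPM per kb of gene model, log scale), in genomic order from the alpha to the gamma cluster (x axis, dashed lines between clusters). The C-type genes Pcdhac2, Pcdhgc3 and Pcdhgc5 lie above most of their clusters, and Pcdha8 and Pcdhgb8 lie lowest.

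The summed level of all 58 genes was 612, 563 and 612 CPM in the wild-type libraries, 595, 594 and 643 CPM in the 5xFAD libraries, and 643, 691 and 565 CPM in the 5xFAD/Cd5l tg/wt libraries. The genotypes overlapped, and the highest library was 1.23 times the lowest. In bulk tissue, fewer cells of a type and less RNA per cell cannot be told apart. The gamma cluster gave 55.9% to 59.2% of this sum, the beta cluster 28.02% to 33.0% and the alpha cluster 10.9% to 13.3%.

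In 5xFAD against wild-type brains, none of the 56 genes passed the test. By edgeR's quasi-likelihood test with Benjamini-Hochberg adjustment over all tested genes, 0 rose and 0 fell, beside 3.50% of all genes that passed (1.06% rose and 2.44% fell), and the smallest adjusted p was 0.0851. At an unadjusted p under 0.05 there were 5 genes, 1 higher and 4 lower, beside 16.3% of all tested genes. The median log2 fold change was 0.02 for the 56 genes and -0.01 for all tested genes. For 36 of the 56 genes the 95% interval lay within a 1.5-fold change, and for 53 within a 2-fold change. No overlap between the libraries of both genotypes was seen for 4 genes that were higher and 7 that were lower in 5xFAD, beside 24.3% of all tested genes (10.4% higher and 13.9% lower).

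In 5xFAD/Cd5l tg/wt against 5xFAD brains, 1 gene of the beta cluster, Pcdhb17, rose and 0 fell, beside 6.23% of all genes that passed (5.34% rose and 0.888% fell). At an unadjusted p under 0.05 there were 2 genes, beside 22.3% of all tested genes. The median log2 fold change was 0.05 for the 56 genes and 0.01 for all tested genes, and the 95% interval lay within a 2-fold change for 54 of the 56. The libraries did not overlap for 6 genes that were higher and 1 that was lower with the Cd5l transgene, beside 28.7% of all tested genes (16.6% higher and 12.1% lower).

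Between 5xFAD/Cd5l tg/wt and wild-type brains, 0 rose and 0 fell, beside 1.58% of all genes that passed (1.38% rose and 0.199% fell), and the smallest edgeR adjusted p was 0.193. At an unadjusted p under 0.05 there were 3 genes, 2 higher and 1 lower, beside 12.4% of all tested genes. The median log2 fold change was 0.03 for the 56 genes and 0.00 for all tested genes, and 55 of the 95% intervals lay within a 2-fold change. The libraries did not overlap for 3 genes that were higher and 1 that was lower, beside 14.5% of all tested genes (7.93% higher and 6.53% lower). The 3 comparisons share libraries and are not independent of each other. A p that misses the threshold does not show that levels were equal: the median half-width of the interval was 0.41 on the log2 scale for these genes.

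**Figure D3:**
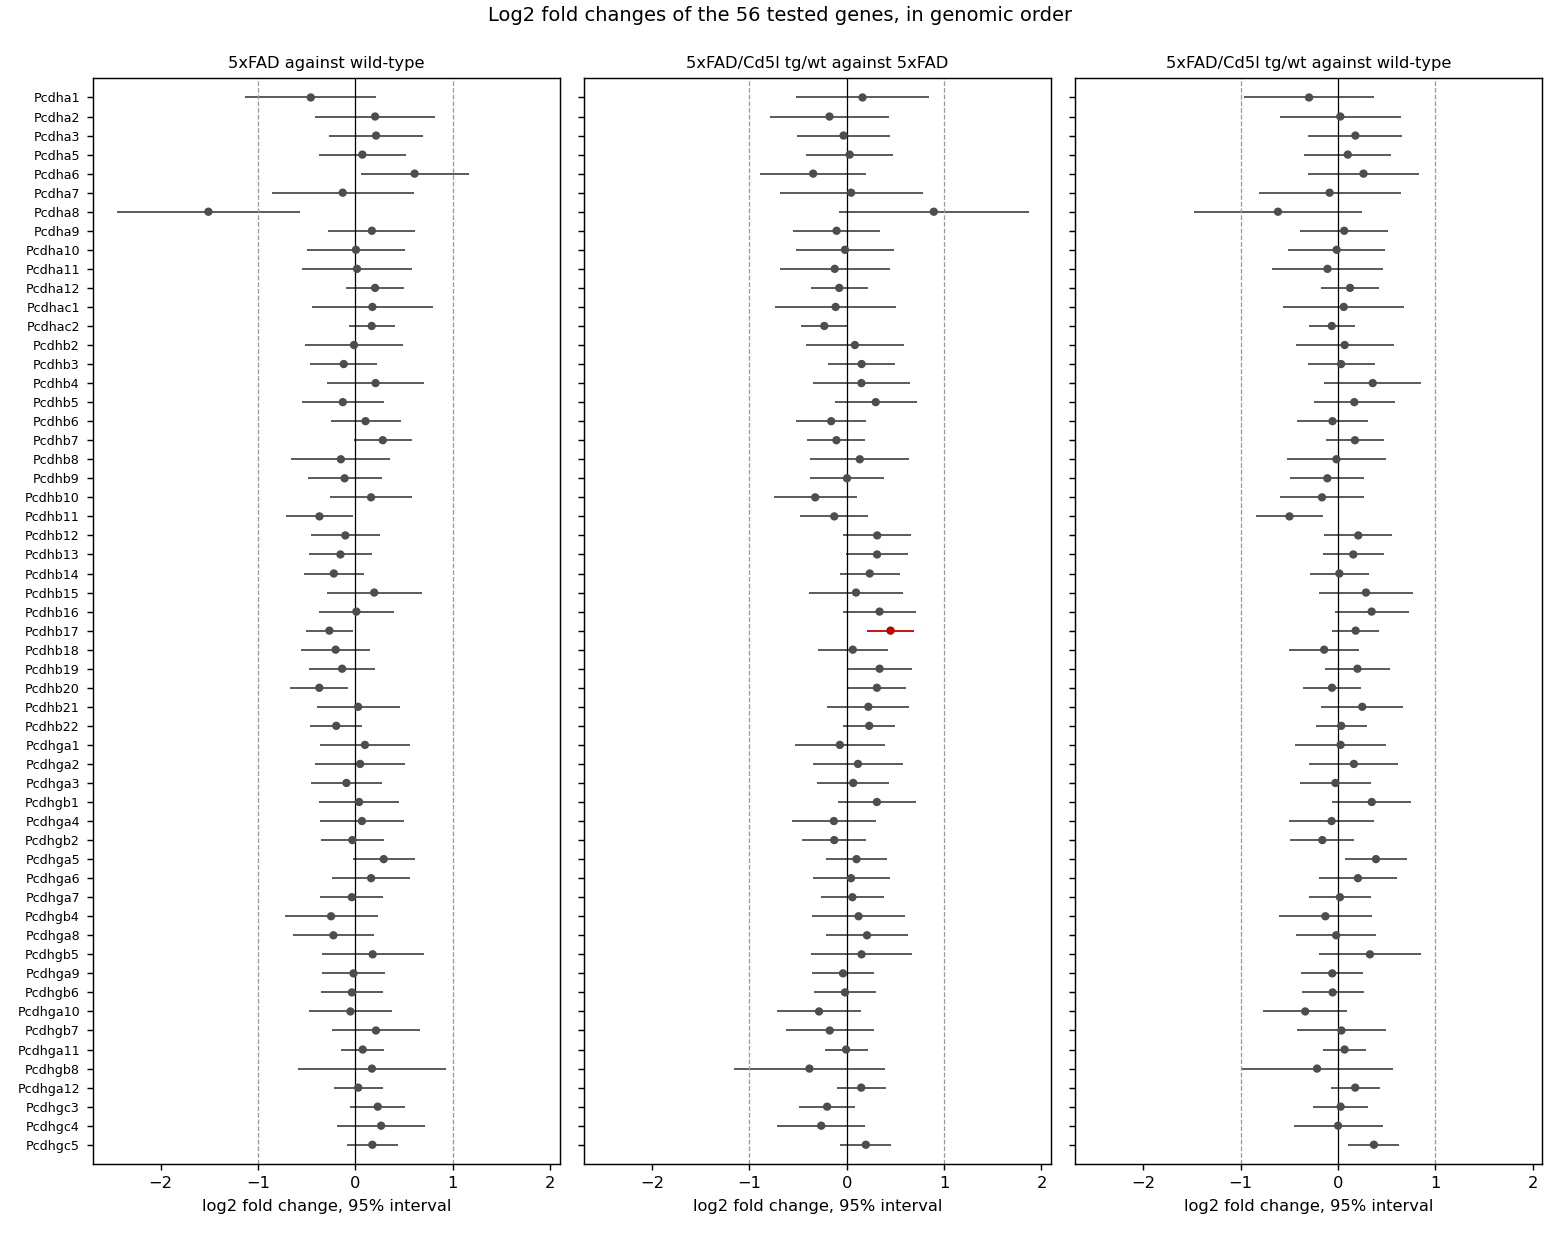
Log2 fold change (point) and 95% interval (line) of each of the 56 tested genes in the 3 comparisons, in genomic order from top to bottom, with dashed lines at a 2-fold change. Pcdhb17 in 5xFAD/Cd5l tg/wt against 5xFAD, in red, is the only gene that passed, and Pcdha8 has the largest difference and the widest interval in 5xFAD against wild-type.

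The beta genes encode adhesion proteins without the shared cytoplasmic constant domain. Their summed level was 194, 182 and 192 CPM in wild-type, 173, 167 and 183 CPM in 5xFAD, and 197, 207 and 186 CPM in 5xFAD/Cd5l tg/wt libraries. The 5xFAD libraries were lowest on average, with one of them just above the lowest wild-type library. As a share of the sum over the 3 clusters, the beta genes made up 31.7%, 32.4% and 31.3% in wild-type, 29.0%, 28.02% and 28.5% in 5xFAD, and 30.7%, 30.0% and 33.0% in 5xFAD/Cd5l tg/wt libraries. The 5xFAD shares lay below those of both other genotypes without overlap; this share was not tested.

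Among the 21 tested beta genes, 14 had a negative and 7 a positive log2 fold change in 5xFAD against wild-type, with a median of -0.12 and none past the threshold. With the Cd5l transgene relative to 5xFAD, 17 were positive and 4 negative, with a median of 0.15, 1 passing gene, and 6 genes higher without overlap of the libraries (Pcdhb12, Pcdhb17, Pcdhb19, Pcdhb20, Pcdhb21 and Pcdhb22), beside 5.34% of all tested genes that rose and 16.6% that were higher without overlap. These comparisons share the 5xFAD libraries, so opposite signs in them are not separate observations. The median of 5xFAD against wild-type was -0.02 without 5xFAD library 2 (8 positive, 13 negative), -0.03 without wild-type library 1 (9 positive, 12 negative) and -0.11 without the 3 libraries that stood apart (9 positive, 12 negative). The median of 5xFAD/Cd5l tg/wt against 5xFAD was 0.27 without 5xFAD/Cd5l tg/wt library 3 (15 positive, 6 negative) and 0.15 without the 3 libraries (15 positive, 6 negative). The latter rests on a single 5xFAD/Cd5l tg/wt library. Against wild-type, the median of the 5xFAD/Cd5l tg/wt brains was 0.07, with 14 positive and 7 negative.

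Pcdhb17 (37617848 to 37622507) is a beta gene that shares no exon base with another model. Its level was 16.2, 16.8 and 18.5 CPM in wild-type, 13.3, 14.6 and 14.8 CPM in 5xFAD, and 17.2, 20.2 and 20.9 CPM in 5xFAD/Cd5l tg/wt libraries. The 5xFAD libraries were all below those of the other genotypes, whose ranges overlapped. It rose by 0.45 ± 0.11 (log2 fold change ± SE) between 5xFAD and 5xFAD/Cd5l tg/wt, with an edgeR adjusted p of 0.0341. In 5xFAD against wild-type the log2 fold change was -0.27 ± 0.11 (edgeR adjusted p = 0.258), and in 5xFAD/Cd5l tg/wt against wild-type it was 0.18 ± 0.11 (edgeR adjusted p = 0.559). Without the 3 libraries that stood apart, its difference between 5xFAD/Cd5l tg/wt and 5xFAD was 0.26 with an edgeR adjusted p of 0.336, from a single transgenic library assumed to vary like the rest. The call was also lost when wild-type library 2 (adjusted p = 0.0599), 5xFAD library 1 (0.156), 2 (0.118) or 3 (0.0621), or 5xFAD/Cd5l tg/wt library 2 (0.110) or 3 (0.121) was left out of the edgeR fit.

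Other beta genes are described by level or were singled out after their values were seen. Pcdhb9, the beta gene with the highest level per kb, had 25.2, 19.9 and 17.8 CPM in wild-type, 18.9, 16.5 and 23.1 CPM in 5xFAD, and 24.1, 18.6 and 15.9 CPM in 5xFAD/Cd5l tg/wt libraries, with full overlap. Pcdhb21, the lowest tested beta gene per kb, had 3.31, 3.10 and 4.15 CPM in wild-type, 3.51, 3.42 and 3.81 CPM in 5xFAD, and 3.99, 4.65 and 3.89 CPM in 5xFAD/Cd5l tg/wt libraries. It did not pass in any comparison, and its libraries with the Cd5l transgene lay just above those of 5xFAD.

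Pcdhb20, singled out after its values were seen, had 14.2, 16.2 and 13.1 CPM in wild-type, 11.1, 10.05 and 12.5 CPM in 5xFAD, and 12.6, 15.6 and 13.5 CPM in 5xFAD/Cd5l tg/wt libraries. Its 5xFAD libraries were below all others, and neither difference passed: -0.37 ± 0.14 against wild-type (edgeR adjusted p = 0.189) and 0.31 ± 0.14 for the transgene (edgeR adjusted p = 0.208). Pcdhb11, singled out in the same way, had 7.85, 8.39 and 7.95 CPM in wild-type, 6.55, 5.50 and 6.69 CPM in 5xFAD, and 6.46, 5.73 and 4.97 CPM in 5xFAD/Cd5l tg/wt libraries. Here the wild-type libraries were above all 6 others, with log2 fold changes of -0.37 ± 0.16 in 5xFAD (edgeR adjusted p = 0.265) and -0.50 ± 0.16 in 5xFAD/Cd5l tg/wt (edgeR adjusted p = 0.193), so that Pcdhb11 did not follow the pattern of Pcdhb17.

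**Figure D4:**
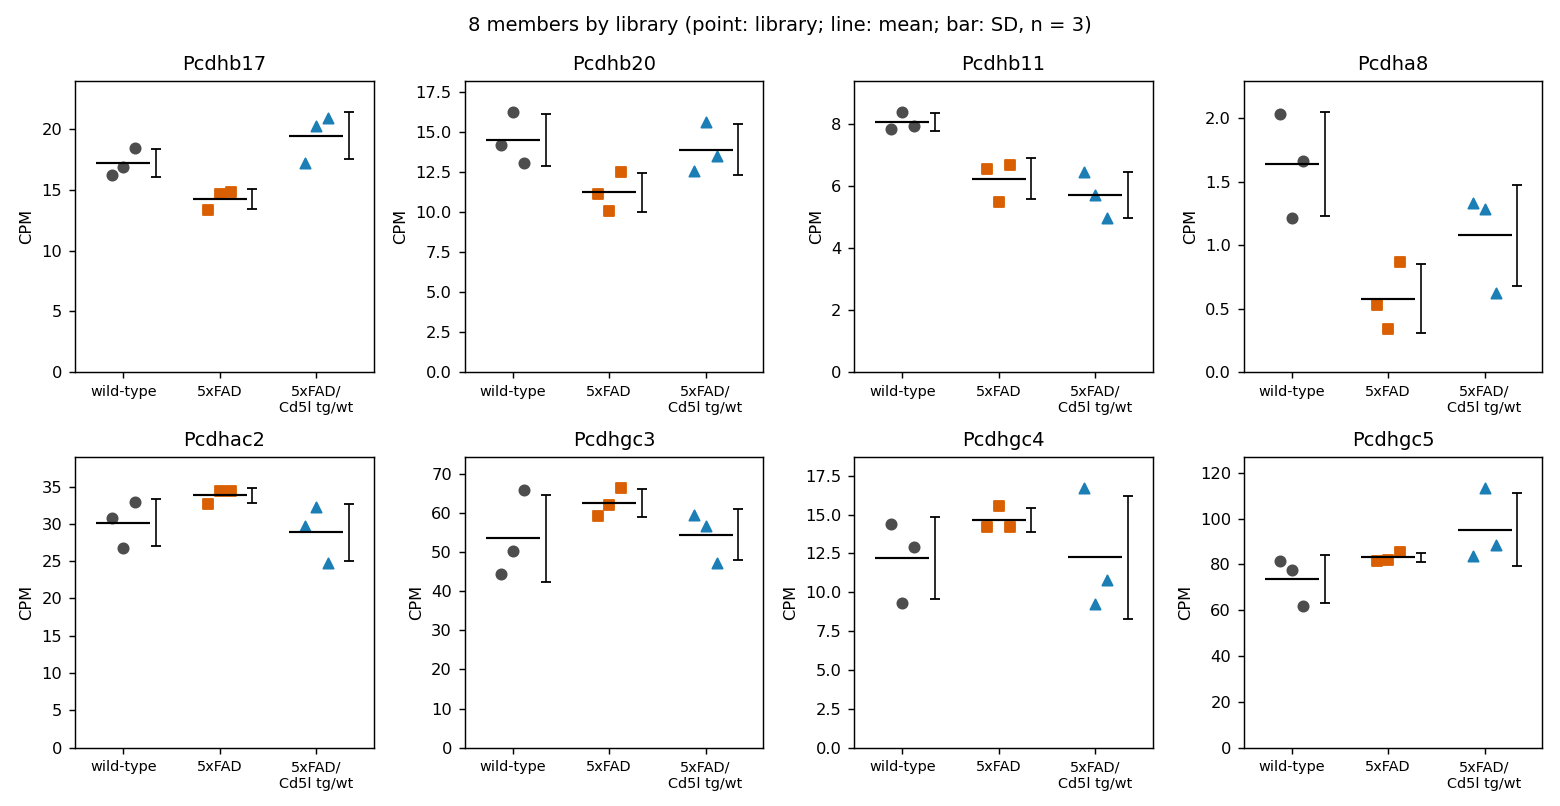
CPM of 8 genes in each library (points), with the mean (line) and SD (bar, n = 3) of each genotype. The 5xFAD libraries lie below both other genotypes for Pcdhb17 and Pcdhb20, the wild-type libraries lie highest for Pcdhb11, and the spread within wild-type is wide for Pcdhgc3 and Pcdhgc5.

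The C-type isoforms carried a large part of both clusters with constant exons. They made up 46.2% of the alpha cluster and 43.6% of the gamma cluster on average, led by Pcdhac2 with 42.0% of the alpha cluster and by Pcdhgc5 with 23.8% and Pcdhgc3 with 16.1% of the gamma cluster. All 5 C-type genes had a positive log2 fold change in 5xFAD against wild-type, from 0.17 to 0.26, and none passed. Their share of the sum over the 3 clusters was 28.5%, 29.5% and 28.8% in wild-type, 32.2%, 33.1% and 31.8% in 5xFAD, and 29.8%, 31.0% and 31.0% in 5xFAD/Cd5l tg/wt libraries. The shares of the 3 genotypes did not overlap, and the 5xFAD shares were highest; as with the beta genes, the share was not tested, and a higher share of one group lowers that of the others.

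Pcdhgc5 (37952566 to 37974926), a C-type gamma isoform, had 81.4, 77.6 and 61.7 CPM in wild-type, 81.5, 82.0 and 85.5 CPM in 5xFAD, and 83.7, 113 and 88.4 CPM in 5xFAD/Cd5l tg/wt libraries. Wild-type libraries were lowest, by a narrow margin apart from library 3. The log2 fold change in 5xFAD/Cd5l tg/wt against wild-type was 0.37 ± 0.12 (edgeR adjusted p = 0.204), and 0.22 without 5xFAD/Cd5l tg/wt library 2. Without the 3 libraries that stood apart, which leaves a single 5xFAD/Cd5l tg/wt library, it was 0.07. It was 0.17 ± 0.12 in 5xFAD against wild-type (edgeR adjusted p = 0.542) and 0.20 ± 0.12 in 5xFAD/Cd5l tg/wt against 5xFAD (edgeR adjusted p = 0.366).

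Pcdhgc3 (37939417 to 37974926), the gamma C-type isoform known to act in dendrite growth and signalling, had 44.4, 50.2 and 65.9 CPM in wild-type, 59.3, 62.1 and 66.4 CPM in 5xFAD, and 59.5, 56.6 and 47.3 CPM in 5xFAD/Cd5l tg/wt libraries. Wild-type library 3 lay within the 5xFAD range, and the other wild-type libraries lay below it. The log2 fold change in 5xFAD against wild-type was 0.23 ± 0.13 (edgeR adjusted p = 0.430). It was 0.11 with wild-type library 1 left out and 0.41 (edgeR adjusted p = 0.0676) with library 3 left out, and without the 3 libraries that stood apart Pcdhgc3 rose by 0.42 with an edgeR adjusted p of 0.0105. Wild-type library 3 is the one with the high cerebellar markers, and their part in the result was not tested. Pcdhgc3 also overlaps BC037039 on the opposite strand, which was at 4.67 ± 1.43 CPM in wild-type and 5.49 ± 1.04 CPM in 5xFAD libraries (SD, n = 3).

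Pcdhgc4, the C-type isoform known for its role in the survival of interneurons, had 14.4, 9.30 and 12.9 CPM in wild-type, 14.2, 15.5 and 14.2 CPM in 5xFAD, and 16.7, 9.24 and 10.8 CPM in 5xFAD/Cd5l tg/wt libraries. The ranges overlapped, with log2 fold changes of 0.26 ± 0.21, -0.26 ± 0.21 and 0.00 ± 0.21 in the 3 comparisons as ordered above, none of which passed. Without the 3 libraries that stood apart they were 0.32, 0.17 and 0.49, again with none past the threshold. Summed over Pcdhgc3, Pcdhgc4 and Pcdhgc5, the level was 140, 137 and 141 CPM in wild-type, 155, 160 and 166 CPM in 5xFAD, and 160, 179 and 146 CPM in 5xFAD/Cd5l tg/wt libraries. The wild-type sums were lowest without overlap, although their makeup differed: in wild-type library 3, Pcdhgc5 gave 17.9% of the gamma cluster, the lowest of the 9 libraries, and Pcdhgc3 gave 19.1%, the highest.

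Pcdhac2 (37276556 to 37320710), the alpha C-type isoform that serotonergic neurons depend on for spacing their axons, had 30.8, 26.8 and 33.0 CPM in wild-type, 32.7, 34.5 and 34.3 CPM in 5xFAD, and 29.7, 32.2 and 24.7 CPM in 5xFAD/Cd5l tg/wt libraries. The transgenic libraries were all below those of 5xFAD, the closest by a small margin. The log2 fold change of that comparison was -0.23 ± 0.11 (95% interval -0.47 to 0.01, edgeR adjusted p = 0.238). Leaving out 5xFAD/Cd5l tg/wt library 3 gave -0.13 (edgeR adjusted p = 0.538). Without the 3 libraries that stood apart, which leaves a single 5xFAD/Cd5l tg/wt library, the log2 fold change was -0.21. It was 0.17 ± 0.11 in 5xFAD against wild-type (edgeR adjusted p = 0.507). By genotype, the summed serotonergic markers were 67.1 to 81.5 CPM in wild-type, 83.7 to 109 CPM in 5xFAD and 58.4 to 105 CPM in 5xFAD/Cd5l tg/wt libraries. None of the 5 tested serotonergic markers passed, Fev was below the filter in all genotypes, and the part of these cells in the Pcdhac2 values was not tested. Pcdhac1, the other alpha C-type isoform, was low, with 2.43 to 3.37 CPM in wild-type, 2.36 to 3.81 CPM in 5xFAD and 2.06 to 4.06 CPM in 5xFAD/Cd5l tg/wt libraries, and its ranges overlapped.

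The alternate alpha isoforms, whose stochastic choice per neuron gives the alpha cluster its diversity, summed to 41.3, 35.7 and 39.3 CPM in wild-type, 38.5, 42.1 and 41.0 CPM in 5xFAD, and 38.2, 46.2 and 33.7 CPM in 5xFAD/Cd5l tg/wt libraries. The genotypes overlapped, and of the 11 tested genes none passed in any comparison, beside 1.58% to 6.23% of all tested genes. The median log2 fold changes were 0.07, -0.03 and 0.02. Pcdha12, the highest of them per kb, had 8.90, 8.33 and 8.37 CPM in wild-type, 8.80, 10.4 and 10.2 CPM in 5xFAD, and 8.39, 9.91 and 9.59 CPM in 5xFAD/Cd5l tg/wt libraries.

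Pcdha8, the lowest of them per kb, had the largest difference of all 56 genes. Its counts were 35, 20 and 24 in wild-type, 8, 6 and 13 in 5xFAD, and 20, 19 and 11 in 5xFAD/Cd5l tg/wt libraries. The 5xFAD counts were below all wild-type counts, with a log2 fold change of -1.51 ± 0.43 (95% interval -2.45 to -0.57) that missed the threshold with an edgeR adjusted p of 0.0851. With no filter on low counts, which enters many more genes of few counts into the fit, the estimate was -1.51 and the edgeR adjusted p 0.0193. Between 5xFAD/Cd5l tg/wt and 5xFAD the log2 fold change was 0.89 ± 0.45 (edgeR adjusted p = 0.265). Pcdha6, singled out after its values were seen, lay in the other direction: 2.03, 1.58 and 2.21 CPM in wild-type against 2.71, 3.65 and 2.48 CPM in 5xFAD libraries, without overlap, and the log2 fold change was 0.61 ± 0.26 (edgeR adjusted p = 0.259).

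The gamma A and gamma B isoforms, which share the gamma constant domain, overlapped between the genotypes as summed groups. Gamma A isoforms summed to 153, 136 and 152 CPM in wild-type, 146, 142 and 162 CPM in 5xFAD, and 163, 170 and 129 CPM in 5xFAD/Cd5l tg/wt libraries. Gamma B isoforms summed to 49.1, 42.2 and 53.0 CPM in wild-type, 47.0, 47.5 and 52.1 CPM in 5xFAD, and 53.3, 53.3 and 41.0 CPM in 5xFAD/Cd5l tg/wt libraries. None of the 12 gamma A and 7 gamma B genes passed in any comparison, beside 1.58% to 6.23% of all tested genes. The medians of their log2 fold changes lay between -0.06 and 0.05.

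Pcdhga11, the highest gamma A gene per kb, had 20.6, 18.7 and 22.4 CPM in wild-type, 20.6, 21.7 and 22.6 CPM in 5xFAD, and 20.4, 23.5 and 20.9 CPM in 5xFAD/Cd5l tg/wt libraries. Its 95% interval in 5xFAD against wild-type ran from -0.15 to 0.30. Pcdhga1, the lowest gamma A gene per kb, had 5.58, 4.74 and 4.36 CPM in wild-type, 5.10, 4.77 and 5.89 CPM in 5xFAD, and 4.66, 6.54 and 3.84 CPM in 5xFAD/Cd5l tg/wt libraries, with full overlap. Pcdhga5, singled out after its values were seen, had 8.08, 8.76 and 10.1 CPM in wild-type against 12.3, 11.6 and 11.3 CPM in 5xFAD/Cd5l tg/wt libraries, without overlap, and its log2 fold change of 0.39 ± 0.15 did not pass (edgeR adjusted p = 0.291).

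Among gamma B genes, Pcdhgb6 was highest per kb, with 17.2, 13.3 and 19.6 CPM in wild-type, 16.5, 15.4 and 16.9 CPM in 5xFAD, and 15.8, 18.3 and 14.1 CPM in 5xFAD/Cd5l tg/wt libraries. Its log2 fold change was -0.04 ± 0.15 in 5xFAD against wild-type. Pcdhgb8 was lowest, with 0.814 to 0.851 CPM in wild-type, 0.736 to 1.07 CPM in 5xFAD and 0.539 to 0.932 CPM in 5xFAD/Cd5l tg/wt libraries, and with 119 counts in all its interval of -0.59 to 0.93 in 5xFAD against wild-type was wider than that of Pcdhgb6.

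**Figure D5:**
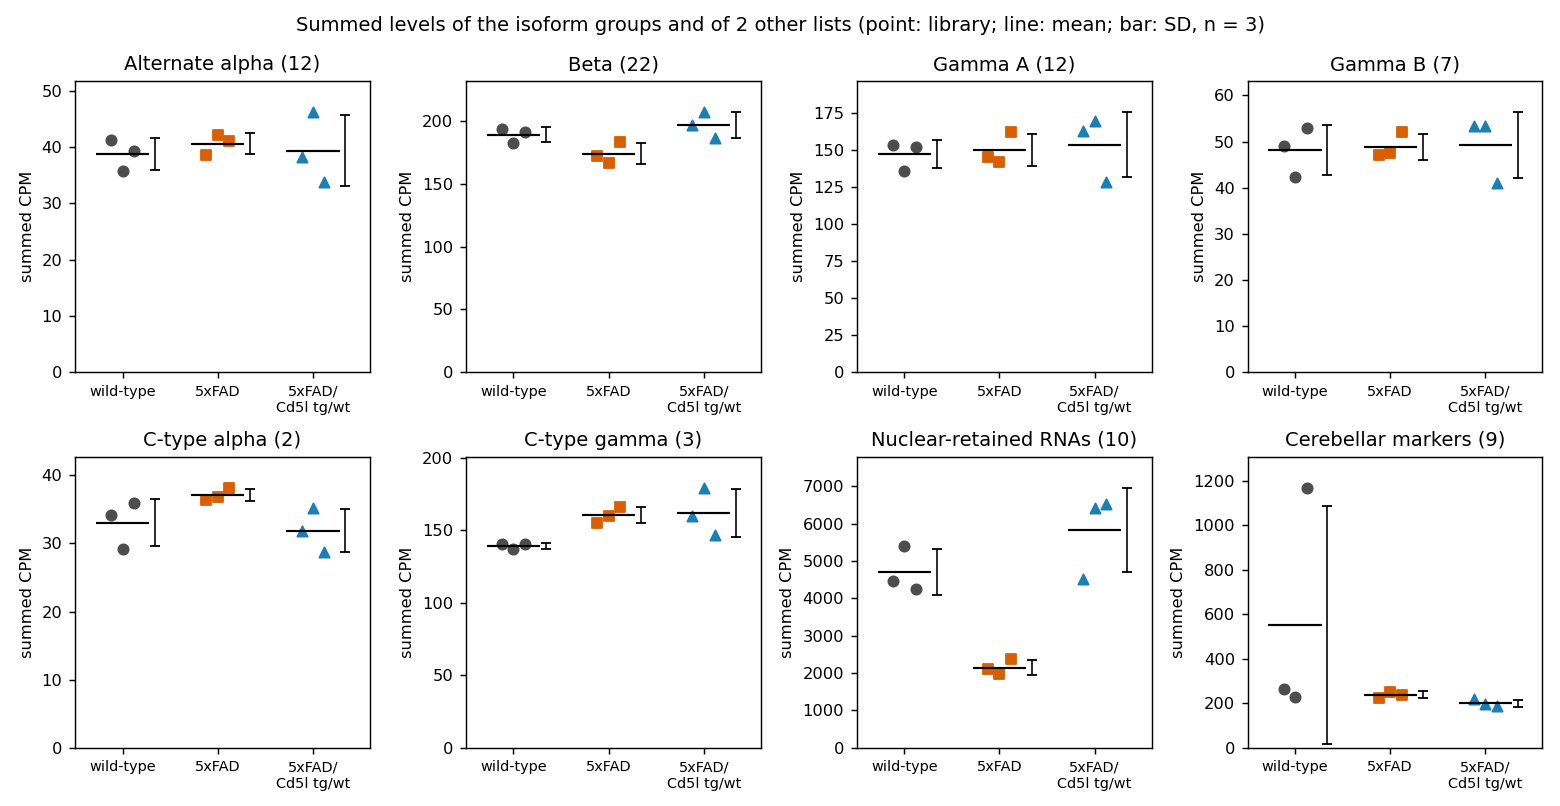
Summed CPM of the 6 isoform groups, of 10 nuclear-retained RNAs and of 9 cerebellar markers in each library (points), with the mean (line) and SD (bar, n = 3) of each genotype. The 5xFAD libraries are highest in C-type alpha genes (36.4 to 38.1 CPM), the nuclear-retained RNAs lie at 1971 to 2368 CPM in 5xFAD and at 4263 CPM or more elsewhere, and wild-type library 3 stands alone in cerebellar markers.

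Other measures also set the 5xFAD libraries apart, and their relation to the beta and C-type shares was not tested. The summed level of 10 nuclear-retained RNAs was 4473, 5418 and 4263 CPM in wild-type, 2109, 1971 and 2368 CPM in 5xFAD, and 4530, 6426 and 6541 CPM in 5xFAD/Cd5l tg/wt libraries. Of these RNAs, 9 of 10 fell in 5xFAD against wild-type, beside 2.44% of all tested genes. In 5xFAD/Cd5l tg/wt relative to 5xFAD 10 of 10 rose, beside 5.34% of all tested genes. Endothelial and mural markers summed to 314 to 349 CPM in wild-type, 207 to 249 CPM in 5xFAD and 349 to 375 CPM in 5xFAD/Cd5l tg/wt libraries. The 5xFAD libraries were lowest in both lists, as they were in the beta share, and the part of either in the values of Pcdhb17 or of the beta genes was not tested.

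The spread between mice of a genotype was set beside that of all tested genes in 3 classes of level, without a test. Between 5 and 20 CPM the median SD of log2 CPM within a genotype was 0.195 for 34 genes, against 0.178 for all tested genes. For the 17 genes under 5 CPM it was 0.236 against 0.310. For the 5 genes with a mean of 20 CPM or more it was 0.183, against 0.107 for all tested genes of that class. This last class has no upper limit, and the highest of the 5 genes had a mean of 83.9 CPM. Levels within the classes were not matched, so no difference in spread is drawn from any of them. The median of the tested clustered protocadherins shifted between mice of a genotype, and that of the beta genes did not always follow. The median deviation of the tested genes from their mean over all libraries was -0.17 (log2) in 5xFAD/Cd5l tg/wt library 3 and 0.14 in library 2. The other libraries lay between -0.13 (wild-type library 2) and 0.07. For the beta genes alone it was -0.004 in 5xFAD/Cd5l tg/wt library 3, 0.13 in its library 2 and -0.008 in wild-type library 2. This deviation includes any difference between genotypes.

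Other genes of the pathway were counted from fixed lists. Of 11 genes of CTCF and cohesin, which loop protocadherin promoters to their enhancers, none rose or fell in any comparison. Of all tested genes, 1.58% to 6.23% passed, so none in a list this short is near their share. Ctcf was at 76.6 ± 7.53 CPM in wild-type, 78.4 ± 0.761 CPM in 5xFAD and 78.1 ± 1.24 CPM with the Cd5l transgene (SD, n = 3). Of 13 regulators of DNA methylation and silencing, 1 fell in 5xFAD against wild-type, beside 2.44% of all tested genes. Beside 5.34% of all tested genes that rose, 2 of the 13 rose with the Cd5l transgene relative to 5xFAD. These were Tet2, an enzyme that oxidises methylated cytosine, which fell by 0.71 ± 0.15 (edgeR adjusted p = 0.0182) and rose by 0.82 ± 0.15 (edgeR adjusted p = 0.00692), and Setdb1, a histone methyltransferase known to protect the chromatin structure of the cluster in neurons, which rose by 0.38 ± 0.09 (edgeR adjusted p = 0.0346). The median log2 fold change of these 13 genes was -0.15 and 0.14 in those comparisons, and 0 passed in 5xFAD/Cd5l tg/wt against wild-type.

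Of 18 cytoplasmic partners, the kinases and actin regulators that act with protocadherins, 1 rose in 5xFAD against wild-type, beside 1.06% of all tested genes, and none passed in the other comparisons. This was Marcks, an actin-linked substrate of protein kinase C, at 176 ± 7.81 CPM in wild-type and 223 ± 19.0 CPM in 5xFAD libraries (SD, n = 3), with a log2 fold change of 0.34 ± 0.08 (edgeR adjusted p = 0.0369). Of 7 processing proteases, which cleave protocadherins and also the amyloid precursor protein, none passed. Between 1.58% and 6.23% of all tested genes passed in the 3 comparisons. Adam10, the sheddase of gamma protocadherins, differed by 0.19 ± 0.09 (log2) between 5xFAD and wild-type (edgeR adjusted p = 0.327).

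Among 11 tested non-clustered protocadherins, relatives encoded outside the clusters, 1 rose and 1 fell in 5xFAD/Cd5l tg/wt against 5xFAD, beside 5.34% and 0.888% of all tested genes, and none passed in the other comparisons. Pcdh15, a tip-link protein of hair cells, rose by 0.76 ± 0.13 (edgeR adjusted p = 0.00632), from 13.2 ± 1.85 to 22.4 ± 3.12 CPM (SD, n = 3). Pcdh17, which acts at synapses and along axons, fell by 0.51 ± 0.12 on the log2 scale (edgeR adjusted p = 0.0305), from 120 ± 6.07 to 84.1 ± 17.99 CPM (SD, n = 3). Of 21 classical cadherins and catenins, the adhesion system of the adherens junction, none passed in any comparison. Between 1.58% and 6.23% of all tested genes passed in the 3 comparisons.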

How the data were processed

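The authors deposited 1 table of read counts per gene for 9 libraries, with whole numbers and no normalization, per the file headers and the values. Per the submitters' processing notes the build was GRCm39 (mm39). For the aligner, counter and strand setting, nothing is given in the sources used here. Genes were kept by filterByExpr (minimum count 10, minimum total 15), so that 17575 genes were tested; the others held up to 0.161% of the counts. After TMM scaling (factors 0.987 to 1.018), 1 model of all libraries was fitted with edgeR 4.0.16 in R 4.3.3 (quasi-likelihood, 1 coefficient per genotype, Benjamini-Hochberg over all tested genes, threshold 0.05). The SE is the absolute log2 fold change over the square root of F. The fit was tested on simulated data. Libraries are labelled as separate mice, and no 2 of a genotype agreed within sampling noise. Floors (3 counts over a genotype) were 0.0624 to 0.0631 CPM and cover counting error only.

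Members and lists were chosen with earlier results of these data known. By the rule, full values were given for genes that passed, the 5 C-type isoforms, and the highest and lowest per kb of each alternate group; of other lists, up to 4 genes. The 22 lists also held markers of cell types. Alternatives were other scalings, filters and tools (DESeq2, limma-voom), only the 6 libraries compared, a replicate block, offsets for gene length, a fit without the 3 libraries that stood apart, and each library left out. Exon sharing came from GENCODE M21 (GRCm38) by gene ID, without its coordinates. No sequence is shown.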

Additional observations from a re-analysis of the deposited data

How the results depend on the processing

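Each comparison was refitted under 20 alternatives. In 5xFAD/Cd5l tg/wt against 5xFAD, the count of genes that rose was 0 with only the 6 libraries compared and 0 without the 3 libraries that stood apart, and ran from 0 to 1 when each library was left out in turn. Pcdhb17 passed in 12 of the 20 alternatives, with log2 fold changes of 0.26 to 0.53 and edgeR, DESeq2 or limma-voom adjusted p of 0.00995 to 0.336. In 5xFAD against wild-type, 1 gene (Pcdhgc3) rose without those 3 libraries, and 1 (Pcdha8) fell with no filter on low counts. In 5xFAD/Cd5l tg/wt against wild-type, 1 gene (Pcdhgc5) rose with no filter (log2 fold change 0.36, edgeR adjusted p = 0.00447). The cause was not tested. The number of all genes that passed ran from 206 to 1354 in 5xFAD against wild-type, from 278 to 2069 in 5xFAD/Cd5l tg/wt against 5xFAD and from 158 to 1062 in 5xFAD/Cd5l tg/wt against wild-type. Of 1077 alternative values of 18 genes, 72 changed sign, and 0 of those had passed in either fit.

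Same-numbered libraries of different genotypes correlated by -0.100 to 0.154, and differently numbered ones by -0.160 to 0.146. This gave no sign that the numbers pair the mice, but it cannot exclude pairing. With the replicate number as a block, Pcdhb17 remained the 1 gene that passed in 5xFAD/Cd5l tg/wt against 5xFAD (log2 fold change 0.45, edgeR adjusted p = 0.0410), and no other call changed. With 156 counts of Pcdha8 and 119 of Pcdhgb8 over 9 libraries, depth limits what can be said of the lowest isoforms. For Pcdha4, with 2 counts and 8.56% of its exon bases unshared, no difference was detectable. Its count cannot tell low expression from reads in shared exons that were not counted for it.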

Other observations

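The 6 beta genes at the end of their cluster nearest to the gamma cluster, Pcdhb17 to Pcdhb22, were singled out after their values were seen and were not tested as a group. In 5xFAD/Cd5l tg/wt against 5xFAD, 6 of 6 had a positive log2 fold change, with a median of 0.27 and a range of 0.06 to 0.45. Of the 6, 5 were higher without overlap of the libraries, beside 16.6% of all tested genes. The other 15 tested beta genes had a median of 0.13, with 11 positive and 4 negative and 1 higher without overlap. In 5xFAD against wild-type the 6 genes had a median of -0.20, with 5 negative, and the other 15 had a median of -0.10. Of the 6, 4 were lower without overlap, beside 13.9% of all tested genes. Of the other 15, 2 were lower and 1 was higher without overlap. Both comparisons use the same 5xFAD libraries.

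Of 28 other gene models within the span of the 3 clusters, 7 had enough counts to be tested, and none rose or fell in any comparison. Between 1.58% and 6.23% of all tested genes passed in the 3 comparisons. Gm26672, whose exons lie opposite Pcdhga10, was at 5.02 ± 1.24 CPM in wild-type, 5.34 ± 0.738 CPM in 5xFAD and 3.56 ± 1.24 CPM with the Cd5l transgene (SD, n = 3). Pcdhga10 was at 10.3 ± 1.56, 9.93 ± 0.990 and 8.18 ± 2.16 CPM in the same order, so both had their lowest mean with the Cd5l transgene, and neither passed.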
